A study of Saccharomyces cerevisiae with 12 samples.

Results

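The 10 genes described here carry out or switch on the growth of baker's yeast (Saccharomyces cerevisiae) on carbon sources of 2 carbons such as ethanol. They are 7 genes for enzymes and a carrier, FBP1, PCK1, ICL1, MLS1, MDH2, IDP2 and SFC1, and 3 genes for transcriptional activators, CAT8, SIP4 and ADR1. They were chosen by name, with earlier results of these data known, and read from the probe set that carries each symbol alone. They are 10 of 5656 genes measured and of 5321 genes tested.

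Cells were grown in chemostats, vessels in which fresh medium enters and culture leaves at a constant rate. That rate of dilution sets the growth rate, here 0.10 per hour in all 4 groups, at pH 5.0 and 30 °C, and 1 nutrient in the feed limits the density. The reference strain was CEN.PK113-7D, a haploid prototroph of mating type a with an intact LEU3 gene. The other was CEN.PK540-3A, also a haploid prototroph of mating type a, in which most of LEU3 is replaced by a loxP-Kan-loxP cassette. It is called the leu3 deletion strain here and is 1 strain. LEU3 encodes a transcription factor of branched-chain amino acid synthesis. Each strain was grown under a limitation by carbon, on a feed with 6.0 g/l ethanol as carbon source and 5.0 g/l ammonium sulfate. Each was also grown under a limitation by nitrogen, on a feed low in ammonium sulfate, at 1.0 g/l, and rich in glucose. The reference received 59 g/l of glucose and the deletion strain 53 g/l, and 17 g/l remained unused in the culture. Thus the limiting nutrient and the carbon source changed together, and what either contributes cannot be told apart. Each of the 4 groups holds 3 arrays, numbered 1 to 3. The labels do not say which arrays came from separate cultures, so the p-values measure the spread between arrays, which may be technical.

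A cell that lives on ethanol must build sugars from acetyl units. The glyoxylate cycle joins acetyl units into C4 acids, and gluconeogenesis turns these acids into phosphorylated sugars. Yeast represses the genes of both routes when glucose is plentiful. When glucose runs out, the Snf1 kinase relieves the repression by Mig1 and activates Cat8 and Adr1. Cat8 and Sip4 bind the carbon source responsive element in the promoters of many of these genes, and SIP4 is itself a target of Cat8.

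Values are intensities of the 1-colour arrays as deposited, scaled by the authors to a like mean on every array. Levels of different genes come from different probes and are not set against each other. An intensity under 12 was treated as too low to measure, so a fold change against such arrays is a lower bound. Log2 changes carry their standard error (SE), and p-values are from limma, two-sided, with Benjamini-Hochberg adjustment over the 5321 genes. The threshold for passing was an adjusted p of 0.05. Values under 12 were set to 12 in the fits, so a group wholly under 12 has no spread there. The 4 groups share 1 estimate of the spread per gene. For FBP1, SFC1, CAT8, SIP4 and ADR1, which have such a group, the SE and p-value can therefore be too small in every comparison.

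The LEU3 probe set read 59.9 to 110.4 on the 6 reference arrays and 0.3 to 0.6 on the 6 arrays of the deletion strain. Between 24.0% and 29.8% of the intensities on an array were under 12. The reference carbon-limited arrays were the least alike. Their ratio of the 3′ to the 5′ actin probe set, a sign of RNA length, was 3.31, 9.27 and 13.98 on arrays 1 to 3. It was 2.45 to 3.29 on the reference nitrogen-limited arrays and 1.54 to 1.91 on the arrays of the deletion strain. Reference carbon-limited array 2 held the highest intensity of all 12 arrays for 8 of the 10 genes. The part of RNA length in the results was not tested beyond the fits given beside them. The probe set for the ThrX control transcript read 3095 and 2748 on reference nitrogen-limited arrays 2 and 3 and at most 1.6 elsewhere.

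All 10 genes were lower on glucose under nitrogen limitation than on ethanol under carbon limitation, in both strains. In the reference strain 10 of 10 passed with a fall, where 14.9% of all tested genes fell and 47.6% passed in either direction. In the deletion strain 10 of 10 passed with a fall, where 17.8% of all tested genes fell and 35.8% passed in either direction. The 3 arrays of one condition did not overlap the 3 of the other for any of the 10 genes in either strain, as for 16.5% of all genes that were lower in the reference strain and 26.4% in the deletion strain. Falls of at least 16-fold, bounds included, were found for 7 of the genes in the reference strain and 6 in the deletion strain, against 0.752% and 0.639% of all tested genes. Of these, FBP1 and SFC1 in both strains and SIP4 in the reference strain were bounds. FBP1, SFC1, CAT8, SIP4 and ADR1 had under 3 nitrogen-limited arrays above 12, so these 5 passed the filter on low values only through the ethanol arrays and had to differ. The other 5, PCK1, ICL1, MLS1, MDH2 and IDP2, were above 12 on all 12 arrays.

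**Figure D1:**
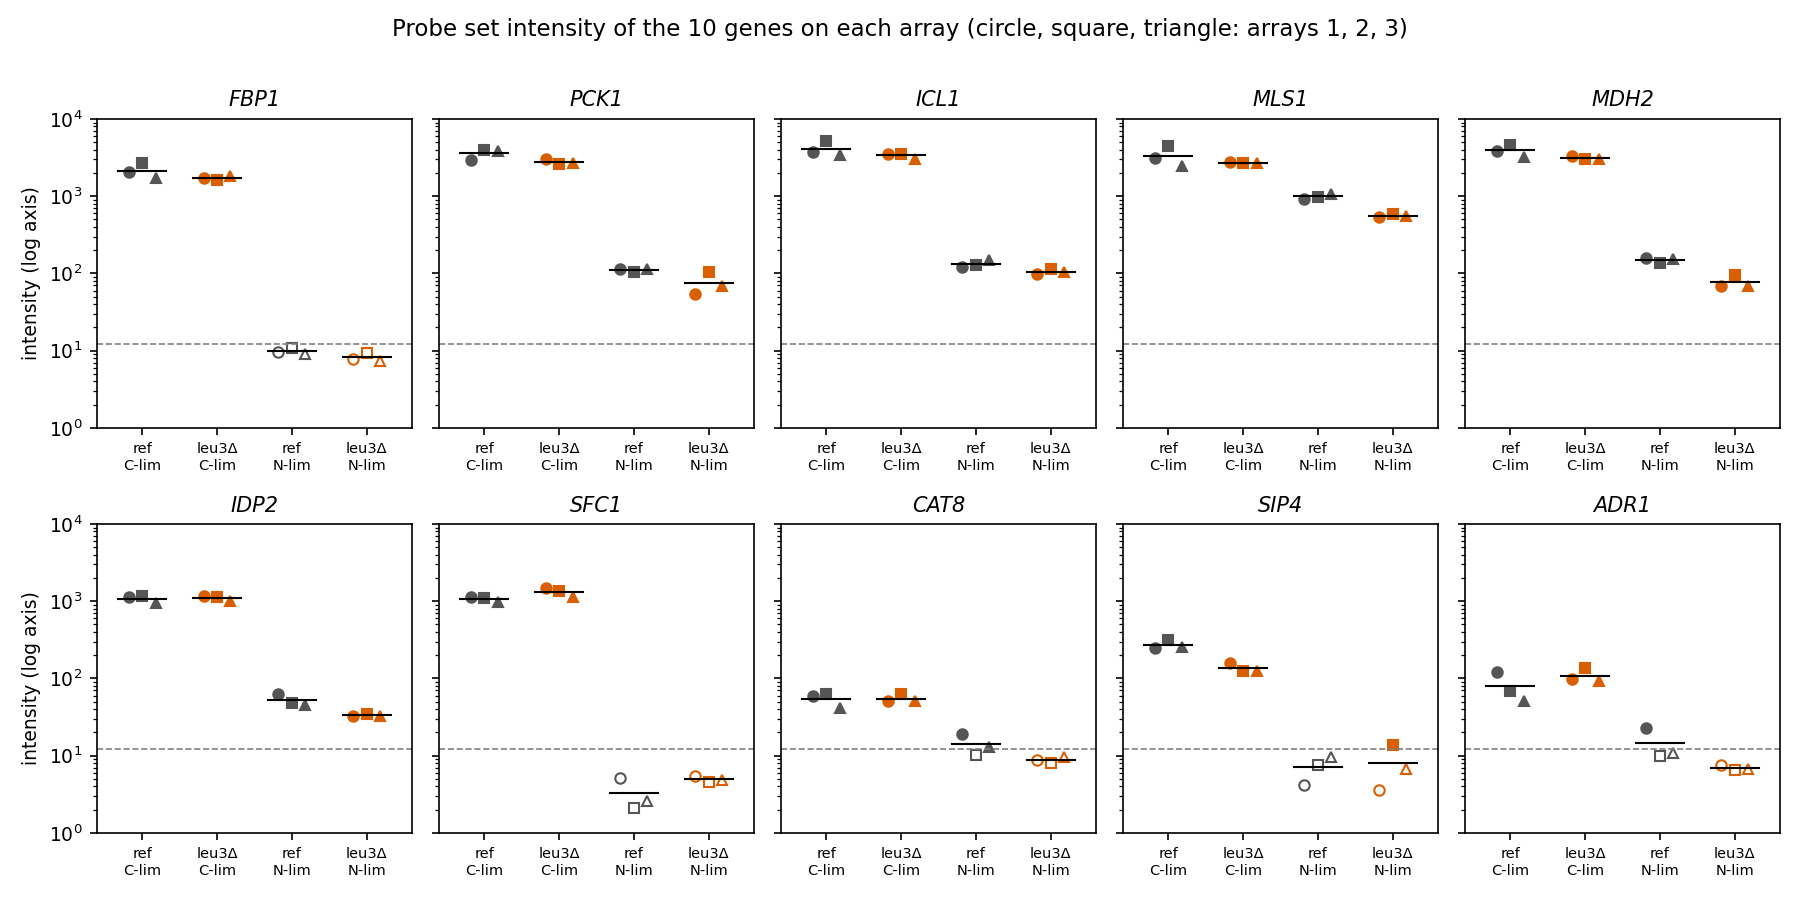
Deposited intensity (log scale) of each of the 10 genes on all 12 arrays, by group. Symbols mark arrays 1 to 3 (circle, square, triangle), grey is the reference and orange the leu3 deletion strain, open symbols lie under the dashed line at 12, and in every panel the ethanol arrays lie above the glucose arrays.

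FBP1 (YLR377C) encodes fructose-1,6-bisphosphatase, which catalyses the step of gluconeogenesis that opposes phosphofructokinase. Its intensity on reference carbon-limited arrays 1 to 3 was 2045, 2695 and 1709, and on the deletion strain's 1732, 1641 and 1800. Under nitrogen limitation it was 9.6, 10.9 and 9.1 in the reference and 7.8, 9.4 and 7.3 in the deletion strain. All 6 nitrogen-limited arrays were thus below the measurable range. FBP1 was at least 176-fold lower in the reference strain (adjusted p = 6.00e-15, limma) and at least 144-fold lower in the deletion strain (adjusted p = 9.14e-15, limma). Among the fitted falls of all 5321 genes, bounds included, FBP1 had rank 5 in the reference strain and rank 2 in the deletion strain. Its falls are lower bounds, so these ranks are not measured positions. FBP1 passed the filter on low values only through the ethanol arrays and had to differ, so its p-values add little to the intensities.

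PCK1 (YKR097W) encodes phosphoenolpyruvate carboxykinase, which turns oxaloacetate into phosphoenolpyruvate and so starts gluconeogenesis from C4 acids. Its intensity was 2928, 4018 and 3851 on the reference and 3070, 2606 and 2697 on the deletion strain's ethanol arrays. On the glucose arrays it was 113.4, 102.8 and 112.9 in the reference and 54.0, 105.7 and 68.2 in the deletion strain. Unlike FBP1, PCK1 therefore kept a measurable signal on every glucose array. It fell by 5.02 ± 0.21 on the log2 scale (SE) in the reference strain, 32.5-fold (adjusted p = 2.17e-11, limma). In the deletion strain it fell 38.1-fold (adjusted p = 1.12e-11, limma).

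The 3 genes of the glyoxylate cycle fell to different degrees. ICL1 (YER065C) encodes isocitrate lyase, which splits isocitrate into glyoxylate and succinate. Its intensity on ethanol was 3718, 5135 and 3377 in the reference and 3558, 3480 and 3070 in the deletion strain. On glucose it was 121.7, 127.0 and 146.9 in the reference and 96.9, 113.2 and 104.1 in the deletion strain. ICL1 fell 30.5-fold in the reference (adjusted p = 1.42e-12, limma) and 32.2-fold in the deletion strain (adjusted p = 1.35e-12, limma), so the strains gave almost the same fold.

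MLS1 (YNL117W) encodes malate synthase, which condenses glyoxylate with acetyl-CoA in the step after isocitrate lyase. On the ethanol arrays it read 3148, 4421 and 2429 in the reference and 2762, 2662 and 2722 in the deletion strain. On glucose it still read 928.3, 990.8 and 1074 in the reference and 540.9, 591.2 and 550.2 in the deletion strain. MLS1 thus stayed far above the measurable limit on glucose, and its fall was the smallest in log2 among the 10 genes in the reference strain. The fall was 1.70 ± 0.18 on the log2 scale (SE), a 3.25-fold change, in the reference (adjusted p = 1.88e-06, limma). In the deletion strain MLS1 fell 4.85-fold (adjusted p = 6.57e-08, limma).

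MDH2 (YOL126C) encodes the cytosolic malate dehydrogenase, which makes oxaloacetate for gluconeogenesis. Its intensity on ethanol was 3877, 4664 and 3212 in the reference and 3315, 3047 and 3051 in the deletion strain. The glucose arrays read 160.0, 135.9 and 155.8 in the reference and 68.4, 95.5 and 69.3 in the deletion strain. Here the strains were also apart on glucose, every deletion array being below every reference array. MDH2 fell 25.8-fold in the reference (adjusted p = 3.98e-12, limma) and 40.8-fold in the deletion strain (adjusted p = 9.81e-13, limma).

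IDP2 (YLR174W) encodes the cytosolic isocitrate dehydrogenase that makes NADPH. On the ethanol arrays it read 1117, 1171 and 938.1 in the reference and 1167, 1132 and 1008 in the deletion strain. On glucose it was 62.6, 47.8 and 45.0 in the reference and 32.4, 34.2 and 33.0 in the deletion strain. The strains overlapped on ethanol and were apart on glucose. IDP2 fell 20.9-fold in the reference (adjusted p = 2.47e-12, limma) and 33.1-fold in the deletion strain (adjusted p = 5.26e-13, limma).

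SFC1 (YJR095W) encodes the mitochondrial carrier that exchanges succinate for fumarate and so passes the succinate of the glyoxylate cycle into the mitochondrion. Its intensity on ethanol was 1148, 1084 and 980.6 in the reference and 1502, 1343 and 1136 in the deletion strain. The glucose arrays read 5.1, 2.1 and 2.6 in the reference and 5.4, 4.6 and 4.8 in the deletion strain. As with FBP1, no glucose array gave a measurable level. SFC1 was at least 89.0-fold lower in the reference (adjusted p = 6.40e-15, limma) and at least 109.9-fold lower in the deletion strain (adjusted p = 9.02e-15, limma). SFC1 too passed the filter on low values only through the ethanol arrays and had to differ, so its p-values add little to the intensities.

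The 3 activator genes fell as well, from ethanol intensities that were closer to the measurable limit. CAT8, SIP4 and ADR1 passed the filter on low values only through the ethanol arrays and had to differ. Their p-values between the conditions therefore add little to the intensities. CAT8 (YMR280C) encodes the zinc cluster activator that gluconeogenic genes need. On the ethanol arrays it read 59.1, 62.4 and 41.2 in the reference and 51.5, 62.2 and 50.9 in the deletion strain. On glucose it was 19.0, 10.1 and 13.0 in the reference and 8.7, 7.9 and 9.6 in the deletion strain. With values under 12 set to 12, CAT8 fell 3.71-fold in the reference (adjusted p = 1.21e-06, limma), which 1 array under 12 understates. It was at least 4.55-fold lower in the deletion strain (adjusted p = 2.48e-07, limma).

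SIP4 (YJL089W) encodes a second zinc cluster activator, which interacts with the Snf1 kinase. Its intensity on ethanol was 245.4, 313.1 and 257.7 in the reference and 157.1, 124.5 and 126.3 in the deletion strain. The glucose arrays read 4.2, 7.5 and 9.7 in the reference and 3.6, 13.9 and 6.7 in the deletion strain. SIP4 is the one gene of the 10 whose strains did not overlap on ethanol. It was at least 22.5-fold lower on glucose in the reference (adjusted p = 1.26e-12, limma). In the deletion strain it fell 10.7-fold with values under 12 set to 12 (adjusted p = 3.32e-11, limma), which 2 arrays under 12 understate.

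ADR1 (YDR216W) encodes a zinc finger activator of genes for ethanol, glycerol and fatty acid use, ADH2 being its classical target. On the ethanol arrays it read 120.4, 68.5 and 50.2 in the reference and 97.9, 135.7 and 93.0 in the deletion strain. On glucose it was 22.5, 10.0 and 10.9 in the reference and 7.5, 6.6 and 6.8 in the deletion strain. The reference ethanol arrays of ADR1 spread the most of the 10 genes, 2.40-fold from lowest to highest. ADR1 fell 5.04-fold in the reference (adjusted p = 1.05e-05, limma), which 2 arrays under 12 understate, and was at least 8.94-fold lower in the deletion strain (adjusted p = 3.67e-07, limma).

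**Figure D2:**
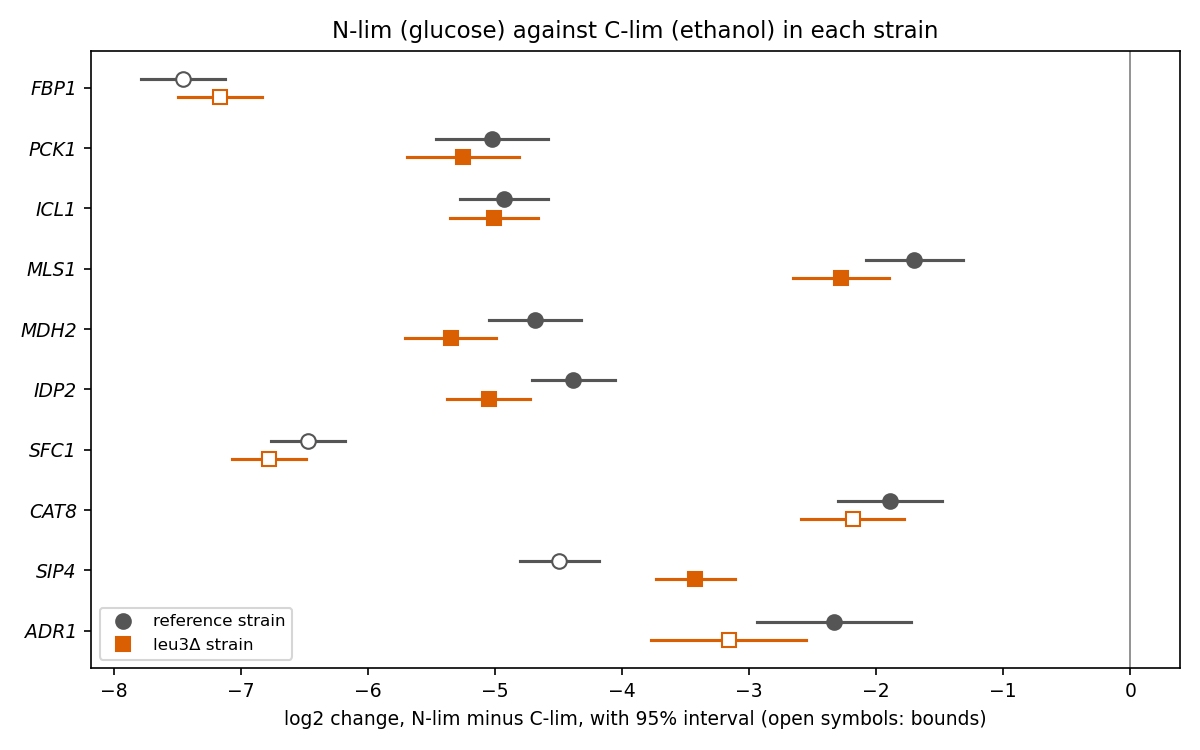
Log2 change from ethanol under carbon limitation to glucose under nitrogen limitation for the 10 genes in each strain, with the 95% interval; grey is the reference, orange the leu3 deletion strain and open symbols are bounds. All 20 values lie below 0, from -7.46 for FBP1 to -1.70 for MLS1, both in the reference strain.

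In both strains, then, the order of the 4 groups has the same break, with the ethanol groups above the glucose groups for all 10 genes. Within ethanol the strains are neighbours whose difference did not pass, except for SIP4. Within glucose the strains are neighbours that differed for MLS1, MDH2 and IDP2, and for FBP1 and SFC1 no order can be given. For CAT8, SIP4 and ADR1 all glucose arrays of 1 strain were under 12, so any order rests on at most 2 arrays above 12.

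On ethanol, the deletion of LEU3 went with a change that passed in 1 of the 10 genes, where 28.1% of all tested genes passed. That gene was SIP4, with a mean intensity of 136.0 ± 18.3 (SD, n = 3) in the deletion strain and 272.1 ± 36.1 (SD, n = 3) in the reference. It was 2.00-fold lower and fell by 1.00 ± 0.15 on the log2 scale (SE, adjusted p = 0.000339, limma), where 10.7% of all tested genes passed with a fall. No deletion array overlapped a reference array, as for 16.6% of all tested genes that were lower. With the actin ratio as a term in the fit, the SIP4 change was -0.88 and missed the threshold (adjusted p = 0.170), and the number of all genes that passed fell from 1494 to 54. With values under 1 set to 1 in place of 12, SIP4 also missed it (adjusted p = 0.0696). Without reference arrays 2 and 3, which have the high actin ratios, the SIP4 change was -0.86, with a single reference array on ethanol left (adjusted p = 0.0183, if that array varies like the other groups), and 338 of all genes passed.

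The other 9 genes did not pass on ethanol, which does not show that the strains were alike. Their log2 changes ran from -0.36 for PCK1 to 0.53 for ADR1, and adjusted p from 0.110 to 0.919. For FBP1 the 95% interval was -0.62 to 0.04, for ICL1 -0.60 to 0.09 and for MDH2 -0.67 to 0.06. The 5 genes FBP1, PCK1, ICL1, MLS1 and MDH2 each had a log2 change between -0.36 and -0.25. Under quantile normalization the changes of 4 of these turned above 0, to 0.09 for PCK1, 0.21 for ICL1, 0.19 for MLS1 and 0.10 for MDH2. CAT8, which is known to activate SIP4, had a mean intensity of 54.9 ± 6.36 (SD, n = 3) in the deletion strain and 54.2 ± 11.4 (SD, n = 3) in the reference. Its log2 change was 0.03, with a 95% interval of -0.37 to 0.44. IDP2 had a log2 change of 0.04, with an interval of -0.29 to 0.36, and SFC1 one of 0.30, with an interval of 0.01 to 0.59 (adjusted p = 0.110, limma). ADR1 rested on single arrays, since its change of 0.53 became 0.87 and passed without reference array 1 (adjusted p = 0.0170), -0.17 without reference arrays 2 and 3, and -0.71 with the actin ratio as a term.

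On glucose, 3 genes were lower in the deletion strain and passed, where 22.2% of all tested genes passed and 16.1% did so with a fall. MDH2 had a mean intensity of 77.7 ± 15.4 (SD, n = 3) in the deletion strain and 150.6 ± 12.9 (SD, n = 3) in the reference. It was 1.96-fold lower, a log2 change of -0.97 ± 0.17 (SE, adjusted p = 0.000885, limma). MLS1 had a mean intensity of 560.8 ± 26.8 (SD, n = 3) in the deletion strain and 997.6 ± 73.0 (SD, n = 3) in the reference. It was 1.78-fold lower, a log2 change of -0.83 ± 0.18 (SE, adjusted p = 0.00402, limma). IDP2 had a mean intensity of 33.2 ± 0.917 (SD, n = 3) in the deletion strain and 51.8 ± 9.46 (SD, n = 3) in the reference. It was 1.54-fold lower, a log2 change of -0.63 ± 0.15 (SE, adjusted p = 0.00860, limma).

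In each of these 3 genes all deletion arrays were below all reference arrays. That was so for 6 of the 10 genes, against 30.3% of all tested genes. The other 3 were ICL1, CAT8 and ADR1, but the low side of CAT8 and ADR1 was under 12 and so gives no measured gap. The actin ratio was also higher on the reference arrays in this pair of groups. With that ratio as a term, the changes were -1.03 for MDH2 (adjusted p = 0.00153), -0.87 for MLS1 (adjusted p = 0.00721) and -0.70 for IDP2 (adjusted p = 0.00841, limma). Without reference arrays 2 and 3, which carry the ThrX signal, a single reference array is left, and its spread is assumed to be that of the other groups. MDH2 was then at -1.06 (adjusted p = 0.0185) and IDP2 at -0.92 (adjusted p = 0.0112, limma), and MLS1, at -0.73, missed the threshold (adjusted p = 0.0989).

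PCK1 was lower in mean in the deletion strain, at 76.0 ± 26.7 (SD, n = 3) against 109.7 ± 5.98 (SD, n = 3), but deletion array 2, at 105.7, lay inside the reference range. Its log2 change of -0.59 ± 0.21 (SE) missed the threshold (adjusted p = 0.0539, limma). Without that array the change was -0.85 and passed (adjusted p = 0.00522). ICL1 had a log2 change of -0.33 with a 95% interval of -0.68 to 0.02, and its arrays did not overlap (adjusted p = 0.164, limma). CAT8 and ADR1 were under 12 on all 3 deletion arrays, and SIP4 on all 3 reference arrays, so their strain differences are known on one side only and did not pass. FBP1 and SFC1 were under 12 in both strains and have no measured difference.

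**Figure D3:**
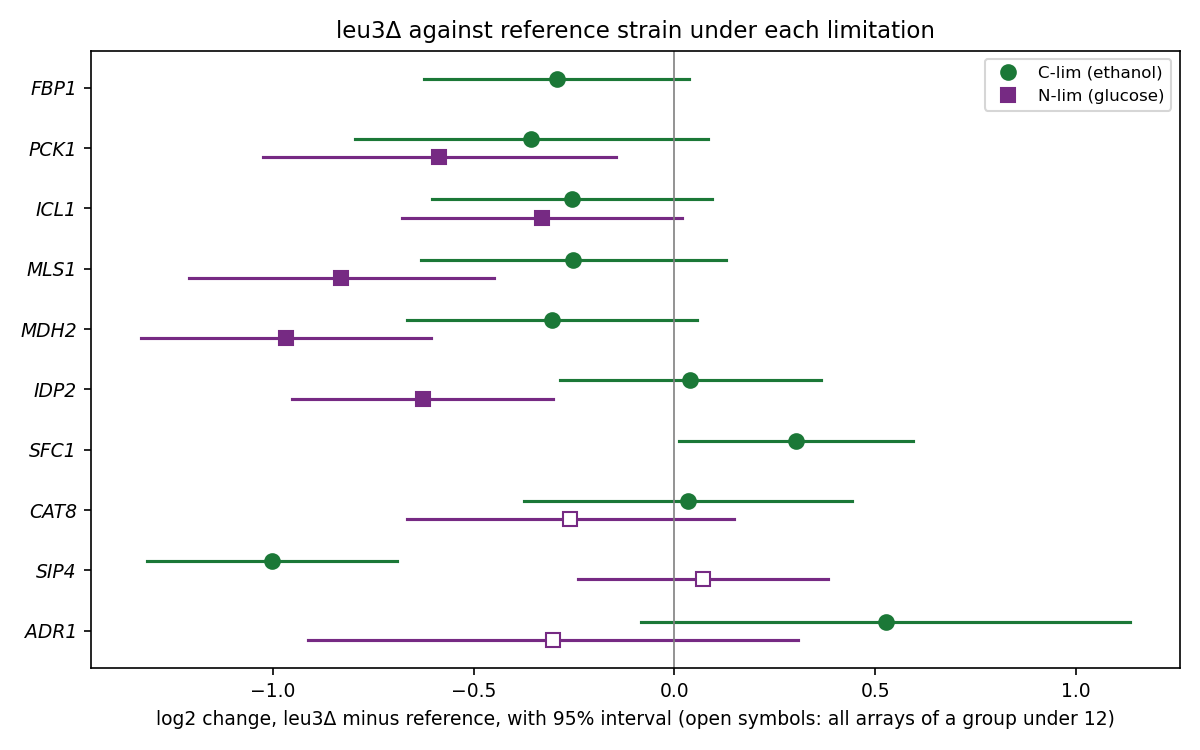
Log2 difference between the leu3 deletion strain and the reference for the 10 genes on ethanol and on glucose, with the 95% interval. Open symbols are values with a group under 12. FBP1 and SFC1 are not drawn on glucose, where both strains were under 12. SIP4 fell by 1.00 on the log2 scale on ethanol, and MDH2, MLS1 and IDP2 are at -0.97, -0.83 and -0.63 on glucose.

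Whether the strain difference itself changed with the condition was tested as an interaction. It passed in 2 of the 10 genes, against 18.3% of all tested genes, 13.1% with a negative and 5.24% with a positive value. FBP1 and SFC1 were under 12 on all glucose arrays, so they have no measured interaction. For CAT8, SIP4 and ADR1 all glucose arrays of 1 strain were under 12, so their interactions rest in part on values set to 12. IDP2 was 0.04 in log2 between strains on ethanol and -0.63 on glucose, an interaction of -0.67 ± 0.22 (SE, adjusted p = 0.0435, limma). It passed in 12 of 24 alternative fits, with adjusted p from 0.0309 to 0.284. SIP4 had an interaction of 1.07 ± 0.21 (SE, adjusted p = 0.00357, limma), but on glucose only 1 of 6 arrays was above 12, so the glucose side is not a measured difference. It missed the threshold in 1 of 24 alternative fits, with values under 1 set to 1 (adjusted p = 0.201). MDH2 at -0.66 (adjusted p = 0.0652) and MLS1 at -0.58 (adjusted p = 0.121, limma) did not pass, so their strain differences on glucose are not shown to differ from those on ethanol.

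The paralogs of the members did not all move as the members did. DAL7 (YIR031C) encodes the malate synthase of allantoin breakdown, the close paralog of MLS1. Its intensity on ethanol was 31.6, 24.7 and 17.1 in the reference and 23.9, 21.9 and 27.2 in the deletion strain. The glucose arrays read 214.2, 244.8 and 197.9 in the reference and 339.0, 362.8 and 337.5 in the deletion strain. DAL7 moved opposite to MLS1 between the conditions and, on glucose, between the strains. DAL7 rose 9.20-fold in the reference (adjusted p = 2.06e-09, limma) and 14.3-fold in the deletion strain (adjusted p = 2.24e-10). On glucose it was 1.59-fold higher in the deletion strain, a log2 change of 0.67 ± 0.19 (SE, adjusted p = 0.0205, limma). That call was lost in 7 of 25 alternative fits, among them the fit with the actin ratio as a term (adjusted p = 0.0668). Signal that the MLS1 and DAL7 probe sets may share was not tested.

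ICL2, which encodes the mitochondrial 2-methylisocitrate lyase of propionate breakdown, fell with ICL1. Its mean intensity was 914.4 on ethanol and 98.5 on glucose in the reference, a 9.18-fold fall (adjusted p = 2.14e-10, limma), and 995.4 and 104.9 in the deletion strain. Its strain difference passed in neither condition. The other malate dehydrogenases fell far less than MDH2. Mitochondrial MDH1 fell by 0.81 on the log2 scale in the reference (adjusted p = 0.00120) and by 1.20 in the deletion strain (adjusted p = 4.79e-05, limma). Peroxisomal MDH3 had log2 changes of -0.96 in the reference (adjusted p = 0.000122) and -1.20 in the deletion strain (adjusted p = 1.53e-05, limma).

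Of the NADP-dependent isocitrate dehydrogenases, IDP3 fell between the conditions in both strains, as IDP2 did but by less, and IDP1 did not. Peroxisomal IDP3 had log2 changes of -2.43 in the reference (adjusted p = 1.13e-08) and -2.97 in the deletion strain (adjusted p = 9.41e-10, limma). Those of IDP2 were -4.38 and -5.05. Mitochondrial IDP1 (YDL066W), which supplies 2-oxoglutarate to amino acid synthesis, read 428.8, 406.9 and 312.4 on ethanol in the reference and 120.5, 149.4 and 146.8 in the deletion strain. On glucose it read 317.8, 346.5 and 288.6 in the reference and 570.7, 553.6 and 584.3 in the deletion strain. So the deletion strain lay below the reference on ethanol and above it on glucose, with no overlap in either. The log2 changes were -1.46 ± 0.15 (SE, adjusted p = 3.42e-05) on ethanol and 0.85 ± 0.15 (SE, adjusted p = 0.00114, limma) on glucose. The interaction was 2.30 ± 0.22 (SE, adjusted p = 9.82e-06, limma), and it passed in all 24 alternative fits. On glucose IDP3 was 0.56 lower in log2 in the deletion strain, a change of -0.56 ± 0.16 (SE, adjusted p = 0.0227, limma), a call lost in 8 of 25 alternative fits.

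**Figure D4:**
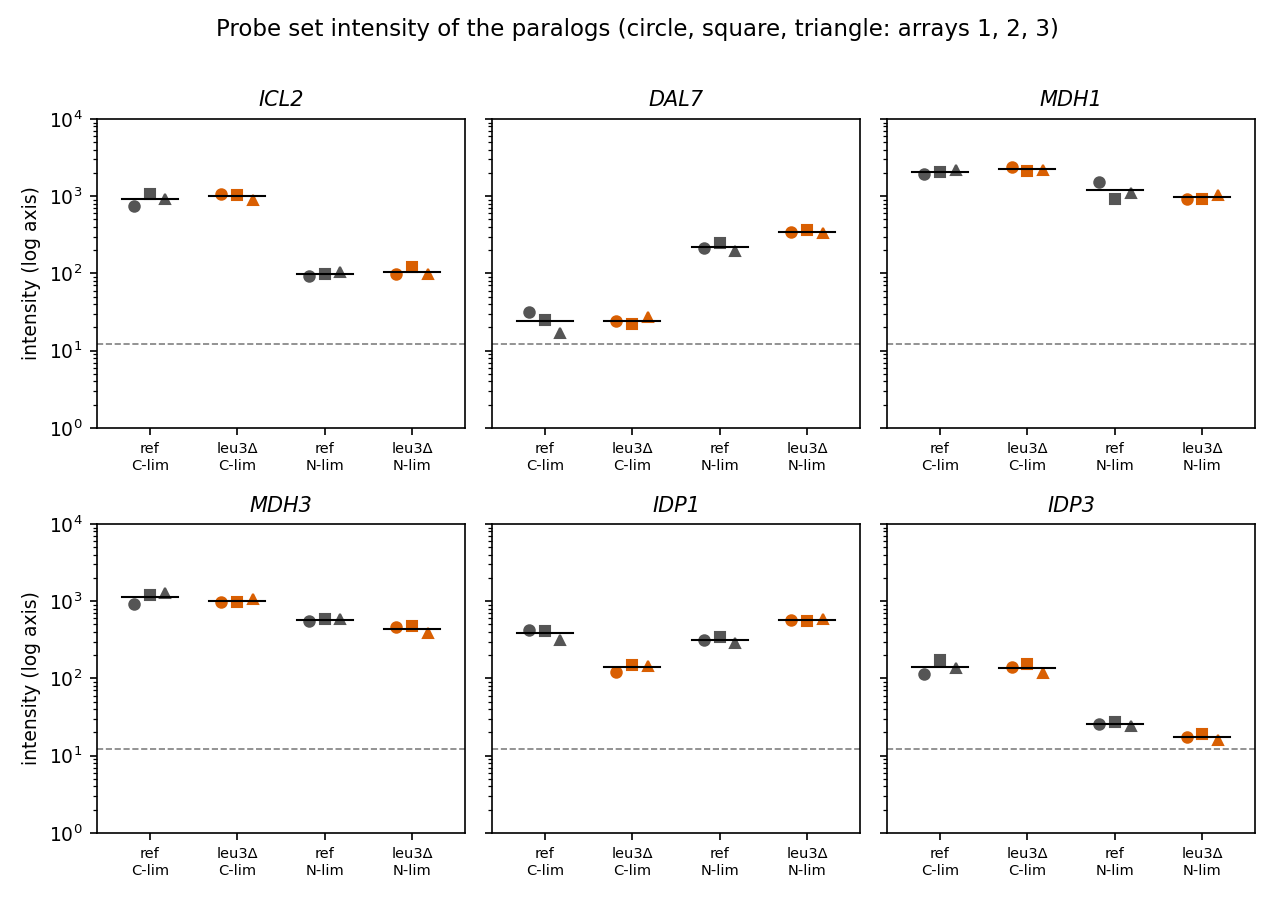
Deposited intensity (log scale) of the paralogs ICL2, DAL7, MDH1, MDH3, IDP1 and IDP3 on all 12 arrays, by group, drawn as for the members. DAL7 rises on glucose in both strains, and IDP1 in the deletion strain is the lowest group on ethanol and the highest on glucose.

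Genes next to the members in the pathways were read from 6 lists of 65 genes, 64 of them measured. The list of other genes with carbon source responsive control was the nearest to the members. In it 10 of 10 fell in both strains, against 14.9% of all tested genes in the reference and 17.8% in the deletion strain. ADY2 and POX1 had under 3 nitrogen-limited arrays above 12, so they passed the filter on low values only through the ethanol arrays and had to differ. The median log2 change of the list was -4.89 in the reference and -5.00 in the deletion strain. The median over all tested genes was 0.19 in the reference and 0.02 in the deletion strain. ADY2, an acetate transporter, was at least 181.9-fold lower in the reference, YAT1, a carnitine acetyltransferase, 38.2-fold and JEN1, the lactate transporter, 34.9-fold. In the deletion strain the largest falls were in ADY2 (-6.94), POT1 (-6.14), the thiolase of peroxisomal beta-oxidation, and CRC1 (-5.30), the mitochondrial carnitine carrier.

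Of the genes for the entry of 2-carbon units and for anaplerosis, 10 of 12 fell in the reference and 9 of 12 in the deletion strain, against 14.9% and 17.8% of all tested genes, and none rose. ADH2, the alcohol dehydrogenase that oxidises ethanol, fell 304.7-fold in the reference and 198.8-fold in the deletion strain. ACS1, an acetyl-CoA synthetase, fell 44.6-fold and 49.3-fold. CIT3, a mitochondrial citrate synthase, was at least 50.2-fold lower in the reference and fell by 5.74 on the log2 scale in the deletion strain, where some arrays were under 12. CIT3 too passed the filter on low values only through the ethanol arrays.

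The lists of regulators and of glycolysis moved less and in mixed directions. Among Snf1 kinase and glucose repression regulators 8 of 12 rose and 2 fell in the reference, and 3 rose and 2 fell in the deletion strain. Over all tested genes 32.6% rose in the reference and 18.1% in the deletion strain. Median centring moved the median log2 change of all genes by -0.27 in the reference and 0.04 in the deletion strain. The list counts were not repeated in that fit, so their difference between strains may depend on the scaling. MIG2, a repressor that glucose induces, was at least 9.02-fold higher on glucose in the reference and at least 8.15-fold higher in the deletion strain. MIG2 was under 12 on all ethanol arrays, so it passed the filter on low values only through the glucose arrays and had to differ. SIP2, a beta subunit of the Snf1 kinase, fell 6.51-fold and 12.6-fold. MIG1 rose by 0.94 in log2 in the reference (adjusted p = 0.000671, limma), a call lost with the actin ratio as a term (log2 change 0.75, adjusted p = 0.0553), and RDS2, a regulator of gluconeogenic genes, fell by 1.12 in the deletion strain.

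The GID ubiquitin ligase marks Fbp1, Pck1, Icl1 and Mdh2 for breakdown when glucose returns. Of its 8 genes, 1 rose and 1 fell in the reference, where 47.6% of all tested genes passed, and 2 rose and 2 fell in the deletion strain, where 35.8% passed. VID24, which encodes the substrate receptor Gid4, rose 4.02-fold in the reference (adjusted p = 4.57e-07) and 6.23-fold in the deletion strain (adjusted p = 1.78e-08, limma). VID24 thus moved opposite to the genes of its substrates. UBC8, the ubiquitin-conjugating enzyme of the ligase, fell by 0.43 in log2 in the reference (adjusted p = 0.0179), lost in 3 of 25 alternative fits, and by 1.30 in the deletion strain (adjusted p = 2.10e-06, limma). RMD5, a catalytic subunit, rose by 0.58 in the deletion strain.

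Of 16 tested glycolytic genes and opposing kinases, 7 rose and 2 fell in the reference, where 32.6% of all tested genes rose and 14.9% fell. In the deletion strain 6 rose and 1 fell, where 18.1% rose and 17.8% fell. PFK27, which makes fructose-2,6-bisphosphate, the inhibitor of the FBP1 enzyme, was at least 3.75-fold higher on glucose in the reference and at least 3.61-fold higher in the deletion strain. PFK27, like MIG2, was under 12 on all ethanol arrays and passed the filter only through the glucose arrays. TDH1 rose 2.43-fold and 2.49-fold. TDH3 had a log2 change of -0.74 in the reference that became 0.040 under quantile normalization, and PFK26 fell by 0.89 in the deletion strain.

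Between strains on ethanol, the 6 lists held 1 to 5 calls each, where 17.4% of all tested genes were higher and 10.7% lower. Of the C2 entry genes 1 of 12 was higher and 3 lower, ACO1 at 0.54, ADH2 at -0.59 and ACS1 at -0.57 in log2. Of the GID genes 3 of 8 were lower, FYV10 at -0.62, VID30 at -0.60 and RMD5 at -0.57, and none was higher. SIP2 (0.76) and RDS2 (0.62) were higher and ERT1 (-0.58) lower among 3 higher and 1 lower of 12 Snf1 and repression genes. Of the glycolytic genes 4 of 16 were lower, with TDH1 at -0.71, TDH3 at -0.70 and FBA1 at -0.61. CRC1 (0.98) was higher and REG2 (-0.80) and CAT2 (-0.68) lower among 2 higher and 3 lower of 10 genes with carbon source responsive control. With the actin ratio as a term none of these 15 named genes passed, and TDH1 and VID30 then had log2 changes of 0.20 and 0.022. That term overlaps with strain, as given for SIP4, and the cause of the lost calls was not tested. IDP1 alone of the named list genes passed in all 25 alternative fits.

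On glucose, the strain calls were mostly falls in 4 of the lists, where 16.1% of all tested genes were lower and 6.05% higher. Median centring turned that split over all genes from 859 lower and 322 higher to 485 lower and 538 higher. Of the paralogs 2 were higher and 1 lower. ACS1, which supplies acetyl-CoA to the glyoxylate cycle, was 1.64-fold lower in the deletion strain (adjusted p = 0.00183, limma), lost with reference array 1 alone, without arrays 2 and 3 (adjusted p = 0.0763). ALD4 (-0.83, adjusted p = 0.00243) and ALD6 (-0.71, adjusted p = 0.0126, limma), the aldehyde dehydrogenases that make acetate, were lower too, among 4 lower and 0 higher of 12 C2 entry genes. ALD6 lost the call in 3 of 25 alternative fits, at -0.35 with the mean of its probe sets (adjusted p = 0.0712, limma). Of 8 GID genes 4 were lower and 0 higher, among them FYV10 (-0.82), VID28 (-0.65) and VID30 (-0.55). VID28 lost the call in 5 of 24 alternative fits, falling to -0.41 without reference array 1 (adjusted p = 0.0979, limma), and VID30 in 9 of 24. POT1 (-1.72) and CAT2 (-1.63) were lower and YAT2 (1.03) higher among 3 lower and 1 higher of 10 genes with carbon source responsive control. No Snf1 or repression gene of 12 passed, and 1 of 16 glycolytic genes did, TDH1 at -0.67, which lost the call in 8 of 25 alternative fits.

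By the interaction, ACO1 (-1.06 ± 0.20 SE, adjusted p = 0.00333), POT1 (-1.93 ± 0.25 SE, adjusted p = 0.000273) and YAT2 (1.34 ± 0.22 SE, adjusted p = 0.00117, limma) passed in all 24 alternative fits. RMD5 (0.89), UBC8 (-0.87) and SIP2 (-0.96) passed in most. CIT2 (0.73), REG1 (-0.80), GLC7 (-0.79) and TDH3 (0.77) missed the threshold in at least 8 of 24.

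The genes with patterns most like the 7 enzyme and carrier genes were found by Pearson's r with their mean standardized log2 intensity over the 12 arrays. The 8 outside the members with the highest r were ACS1 (0.998), NDE2 (0.997), OM14 (0.996), MBR1 (0.996), SDH2 (0.995), FRE4 (0.994), CTA1 (0.994) and IDP3 (0.994). These correlations describe the step between ethanol and glucose, which all 12 arrays share. Of the activators, CAT8 and SIP4 had an r of 0.983 and ADR1 one of 0.956, and MLS1 had one of 0.972 with the mean it is part of. The likeness did not extend to the size of the step, since SDH2 went from 3185 on ethanol to 1282 on glucose in the reference and CTA1 from 1415 to under 12. The glucose means of FRE4 and CTA1 in both strains and of MBR1 in the deletion strain were under 12, so their r rests in part on values set to 12.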

How the data were processed

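The deposited values are intensities of 1-colour arrays with 9335 probe sets, which the authors scaled, as seen from their mean without the outer 2% of 150.1 on every array; the software is not given in the sources used here. Probe sets were named from the platform annotation: 6504 name 1 gene, 328 several, and those 6504 stand for 5656 genes. Where a gene had more than 1 probe set (315 genes), the brightest by mean log2 was taken, and each member has 1. Values under 12 were set to 12, log2 was taken, and genes above 12 on at least 3 of 12 arrays were kept. limma 3.58.1 in R 4.3.3 fitted 4 group means to all 12 arrays (8 residual degrees of freedom, lmFit and eBayes), checked first on simulated data. The 5 contrasts are nitrogen-limited minus carbon-limited in each strain, deletion minus reference in each condition, and their interaction. The number of arrays limits the precision.

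The members and lists were chosen with earlier results of these data known. The text names all members, their paralogs, LEU3, the up to 3 genes per list and contrast that passed with the largest absolute change, and the 8 genes most like the members. The lists hold C2 entry and anaplerosis, paralogs, the GID ligase, Snf1 and glucose repression, shared glycolytic enzymes, and other genes with carbon source responsive control. Alternatives changed the floor, filter, normalization, choice of probe set, spread, an actin ratio term, the replicate block and the arrays used. Promoter and protein sequences were not used here. The labels do not say that the replicate numbers pair the arrays, and the main fits treat the arrays as unpaired.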

Additional observations from a re-analysis of the deposited data

Results flagged for a closer look

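The interaction of strain and condition passed in limma for 2 genes. IDP2 was marked for its interaction of -0.67 on the log2 scale (adjusted p = 0.0435), which missed the threshold in 12 of 24 alternative fits. SIP4 was marked for its interaction of 1.07 on the log2 scale (adjusted p = 0.00357), with 5 of its 6 glucose arrays under 12, so that no strain difference on glucose was measured. It missed the threshold in 1 of 24 alternative fits (adjusted p = 0.201). Groups of 3 arrays were not tested for single outlying arrays.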

How the results depend on the processing

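In 25 alternatives, 12 of which leave out 1 array, all 10 genes fell with nitrogen limitation in both strains. The number of members that passed between strains on ethanol was 1; it was 0 with values under 1 set to 1 in place of 12 (SIP4 adjusted p = 0.0696), 0 with the actin ratio as a term, 2 with no filter and 3 with each array centred on its median (SIP4, FBP1 and MDH2). It was 1 to 2 with 1 array left out, ADR1 passing without reference array 1 and FBP1 without reference array 3. On glucose 3 passed, and 3 to 4 with 1 array left out. For the interaction 2 passed; it was 1 with log2(value + 12), with median centring, with the actin term and without reference carbon-limited arrays 2 and 3, 4 with quantile normalization, and 1 to 4 with 1 array left out. The causes were not tested. No member's called change turned its direction. Among list genes TDH3 turned to 0.040 between conditions in the reference with quantile normalization, and between strains on ethanol VID30 turned to 0.022 and TDH1 to 0.20 with the actin term.

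Over all genes, 2532 passed between conditions in the reference strain, 1289 with the actin term, 1556 without reference carbon-limited arrays 2 and 3 and 1513 without reference nitrogen-limited arrays 2 and 3, and 2148 to 2716 with 1 array left out. Between strains on ethanol 1494 passed, 54 with the actin term, 338 without reference arrays 2 and 3 and 805 with only the 2 groups compared. On glucose 1181 passed and 715 without reference arrays 2 and 3. For the interaction 976 passed, 417 with the actin term, 634 without the carbon-limited and 504 without the nitrogen-limited reference arrays 2 and 3. Median centring moved the median of all genes by -0.27 (conditions, reference), -0.17 (strains, ethanol), 0.14 (strains, glucose) and 0.31 (interaction), and turned the split of lower against higher calls from 795 and 1737 to 1370 and 951, from 568 and 926 to 996 and 539, from 859 and 322 to 485 and 538, and from 697 and 279 to 241 and 614. Relative to that centre MDH2, MLS1 and IDP2 still passed on glucose, at -0.83, -0.69 and -0.49.

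With the replicate numbers as a block (replicate block), 10, 10, 1, 3 and 2 members passed in the 5 contrasts. Of 18 same-numbered pairs 2 had deviations correlated over 0.1 (r from -0.31 to 0.16), and 0 of 12 arrays correlated best with their own number. Signal limits the results for the 5 genes near or under 12 on glucose.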
